A study of Sus scrofa with 6 samples.

Results

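CNOT8, CNOT2, TOB1, PABPC4 and DCP1A take part in the shortening of the poly(A) tail and the removal of the cap, the steps with which the decay of most mRNAs begins. Their signals were compared between IPEC-J2 and IPEC-1, both spontaneously immortalised epithelial lines of the piglet's small intestine. The members are the 8 probe sets of the Porcine Genome Array whose only symbol in the platform annotation is one of these 5 gene names, out of 10069 probe sets with 1 symbol (6765 genes). The genes were picked with the difference between the cell lines on these same arrays in view. Their differences are therefore given as a description, counts of members past a threshold support nothing, and the study's interest in RNA degradation is the question they belong to.

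RNA of 3 IPEC-J2 cultures and 3 IPEC-1 cultures was hybridised to 6 arrays, with 500 ng of total RNA per array. All cultures were untreated and grew on uncoated membrane inserts at 39 °C in medium with 5% foetal calf serum and epidermal growth factor. The sample labels give 7 days on the membrane and the methods give a longer culture. Each cell line is a continuous line at a high passage number, so the replicates are cultures of one line and not animals. The labels give IPEC-J2 the same cell bank number as IPEC-1, where the methods give each line its own. Values are log2 signals of probe sets, with a lowest possible value (floor) of 4.00. A difference is always IPEC-J2 minus IPEC-1, and a fold is the antilog of that difference.

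Decay of an mRNA usually starts with deadenylation. The CCR4-NOT complex, a large assembly built on the scaffold CNOT1, carries deadenylases of the CAF1 type (CNOT7 or CNOT8) and of the CCR4 type (CNOT6 or CNOT6L), and CNOT2 belongs to its NOT module together with CNOT3. Adaptors of the BTG and TOB family hold the CAF1 subunit, and TOB proteins also hold the cytoplasmic poly(A)-binding proteins that coat the tail. Once the tail is short, the cap is removed by DCP2 with its activators, among them DCP1A, and the body of the RNA is degraded from its 5′ end. These roles are known mainly from human and yeast proteins.

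CNOT8 and PABPC4 and every DCP1A probe set above the floor had lower signals in IPEC-J2 than in IPEC-1, while CNOT2 and TOB1 had higher signals. The differences ran from -0.96 for CNOT8 to 1.25 for TOB1. The complex was thus represented by members of opposite direction, since CNOT2 was 1.44-fold higher and CNOT8 1.94-fold lower. In all 7 probe sets above the floor, the 3 arrays of one cell line lay apart from the 3 arrays of the other. The same held for 41.3% of the 16313 probe sets tested (17.4% higher and 23.9% lower in IPEC-J2). By limma with an adjusted p under 0.05, 2 of the 7 were called higher and 5 lower, where 19.0% of all probe sets tested were called (8.80% higher and 10.2% lower). Since the genes were chosen on this contrast, nothing is read from these counts.

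**Figure D1:**
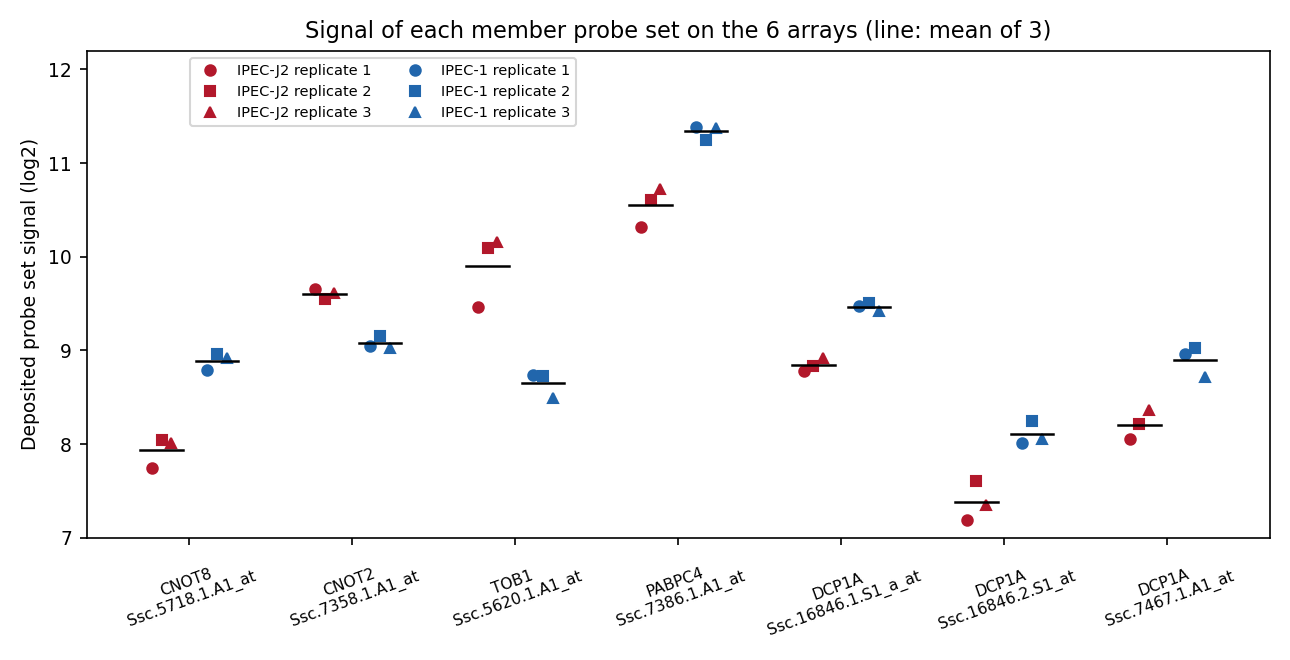
Log2 signal (vertical axis) of the 7 member probe sets above the floor on each array, with IPEC-J2 in red left of IPEC-1 in blue; marker shapes are replicates and black lines are means of 3. CNOT2 and TOB1 lie higher in IPEC-J2, the other probe sets lower, and TOB1 of IPEC-J2 replicate 1 (9.46) lies below the other IPEC-J2 arrays (10.09 and 10.16).

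CNOT8, a catalytic deadenylase subunit of CCR4-NOT, is measured by 1 probe set (gene ID 100525087). Its log2 signals were 7.75, 8.04 and 8.01 in IPEC-J2 replicates 1, 2 and 3, against 8.79, 8.96 and 8.92 in IPEC-1 replicates 1, 2 and 3. All IPEC-J2 arrays were low, and 0.75 log2 units separated the highest of them from the lowest IPEC-1 array. The means were 7.93 ± 0.16 in IPEC-J2 and 8.89 ± 0.09 in IPEC-1 (SD, n = 3 each), a difference of -0.96 (SE 0.13 from limma). In absolute size this difference exceeded that of 77.9% of the probe sets tested.

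CNOT2, a subunit of the NOT module, is also measured by 1 probe set (gene ID 100153354). The signals were 9.66, 9.55 and 9.61 in IPEC-J2, against 9.05, 9.16 and 9.03 in IPEC-1. The arrays of each line lay close together, within 0.11 in IPEC-J2 and 0.13 in IPEC-1, and the gap between the lines was 0.39. The means of 9.61 ± 0.06 in IPEC-J2 and 9.08 ± 0.07 in IPEC-1 (SD, n = 3 each) gave a difference of 0.53 (SE 0.11). This is the smallest difference among the member probe sets above the floor, and 55.0% of the probe sets tested had a smaller one. It was 8.36 times the SD pooled over the lines.

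TOB1, an antiproliferative adaptor that recruits the CAF1 deadenylases, had the largest difference of the members (gene ID 100144440). Its signals were 9.46, 10.09 and 10.16 in IPEC-J2, against 8.74, 8.73 and 8.49 in IPEC-1. The lines did not overlap, but IPEC-J2 replicate 1 was 0.63 to 0.70 below the other IPEC-J2 arrays. The means were 9.90 ± 0.39 in IPEC-J2 and 8.65 ± 0.14 in IPEC-1 (SD, n = 3 each), a 2.38-fold higher signal. The difference of 1.25 (SE 0.22) was 4.30 times the pooled SD, so the largest difference was also among the least precise ones. IPEC-J2 replicate 1 was the dimmest array of the series, with a 75th percentile of 8.31 against 8.51 to 8.57 on the other arrays. The part of this in the TOB1 spread was not tested. With arrays centred on their 75th percentile the TOB1 difference was 1.30, and without IPEC-J2 replicate 1 it was 1.47.

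PABPC4, a cytoplasmic poly(A)-binding protein, had signals of 10.32, 10.61 and 10.72 in IPEC-J2, against 11.39, 11.25 and 11.38 in IPEC-1 (gene ID 100515840). All IPEC-J2 arrays were lower, with a gap of 0.53 to the nearest IPEC-1 array. The means were 10.55 ± 0.21 in IPEC-J2 and 11.34 ± 0.08 in IPEC-1 (SD, n = 3 each). The signal was 1.73-fold lower in IPEC-J2, with a difference of -0.79 (SE 0.15).

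DCP1A, an activator of the decapping enzyme, is the only member with several probe sets (gene ID 100623102). The first of its probe sets, with the suffix _a_at that marks probes shared by several transcripts of a gene, had signals of 8.78, 8.83 and 8.92 in IPEC-J2, against 9.47, 9.51 and 9.42 in IPEC-1. The second had 7.19, 7.61 and 7.35 in IPEC-J2, against 8.01, 8.25 and 8.06 in IPEC-1. The third had 8.05, 8.22 and 8.36 in IPEC-J2, against 8.96, 9.03 and 8.72 in IPEC-1. In each of the 3 the IPEC-J2 arrays were low, and the gap between the lines was 0.50, 0.40 and 0.36. The differences of -0.62 (SE 0.10), -0.72 (SE 0.16) and -0.69 (SE 0.15) lay within 0.10 of each other, which is less than the SE of any of them. The IPEC-J2 mean of the second lies under the level that is given with BTG2 for signals close to the floor, and its fold against that level was 1.25. The difference of the first was the largest of all members against its spread, at -10.49 times the pooled SD. The fourth stood at the floor on all 6 arrays and has no measured difference.

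The number of DCP1A probe sets decides the size given for the gene. Over the 3 probe sets above the floor, the mean signal was 8.15 ± 0.12 in IPEC-J2 and 8.83 ± 0.10 in IPEC-1 (SD, n = 3 each), 1.60-fold lower in IPEC-J2. With the probe set at the floor included, as in an average over all probe sets of a symbol, the means were 7.11 ± 0.09 in IPEC-J2 and 7.62 ± 0.07 in IPEC-1 (SD, n = 3 each) and the signal was 1.42-fold lower. The probe sets of 1 gene share its transcripts and are not replicates of each other.

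Labels of IPEC-J2 replicate 3 and IPEC-1 replicate 1 share a short note (note A), and so do those of IPEC-J2 replicate 1 and IPEC-1 replicate 2 (note B). Within both notes, all 7 probe sets kept the sign of the overall difference. CNOT8 differed by -0.78 within note A and by -1.21 within note B, CNOT2 by 0.56 and 0.50, TOB1 by 1.42 and 0.73 and PABPC4 by -0.67 and -0.93. For DCP1A the values were -0.55, -0.66 and -0.60 within note A and -0.73, -1.06 and -0.98 within note B. The lower probe sets differed more within note B and TOB1 differed less, and note B holds the dim array IPEC-J2 replicate 1. Whether that array accounts for the contrast between the notes was not tested.

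**Figure D2:**
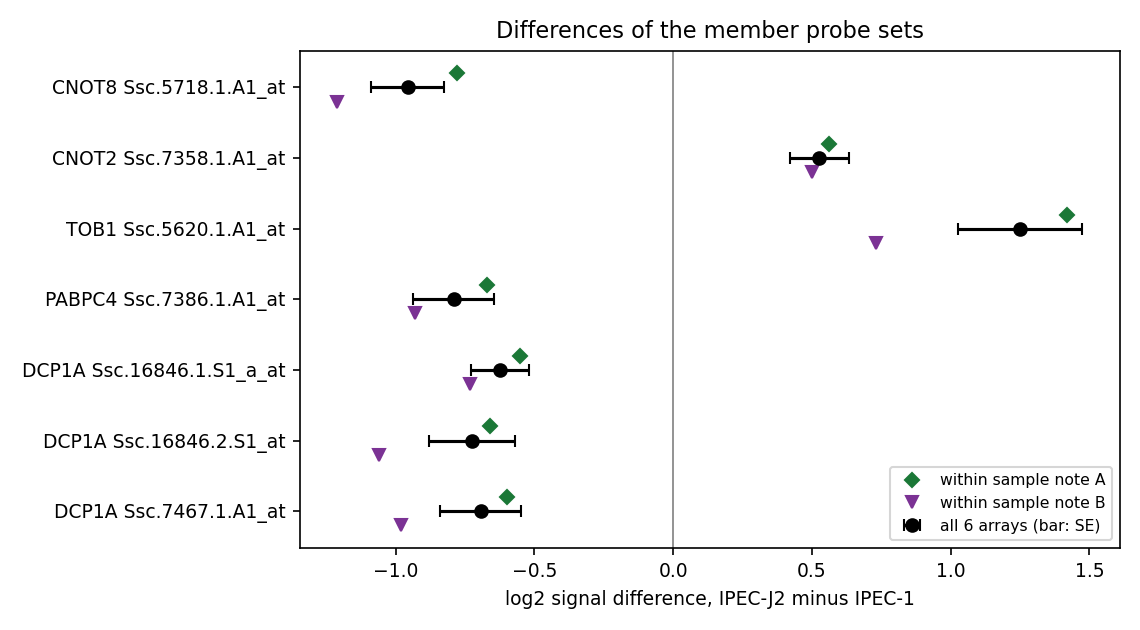
Log2 signal difference, IPEC-J2 minus IPEC-1 (horizontal axis), of each member probe set above the floor over all 6 arrays (black, bar is SE from limma) and between the arrays that share sample note A (green) or note B (purple). Each probe set keeps its side of 0; TOB1 ranges from 0.73 in note B to 1.42 in note A.

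No member difference changed sign in any setting tried, which the choice of the members favours. The ranges over settings were -1.01 to -0.86 for CNOT8, 0.50 to 0.58 for CNOT2, 1.08 to 1.47 for TOB1 and -0.88 to -0.68 for PABPC4. For DCP1A the widest range was -0.86 to -0.63, for its second probe set. With 3 arrays in each line, the smallest two-sided p of an exact permutation test is 0.1.

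The other subunits of CCR4-NOT that were analysed had no call, and CNOT3, CNOT4, CNOT6 and CNOT10 are not analysed here. Of 8 probe sets of CNOT1, CNOT6L, CNOT7, CNOT9 and CNOT11, 0 passed limma's adjusted threshold, 2 had an unadjusted p under 0.05 (both lower), and 0 passed the methods' t-test after adjustment. Over all 16313 probe sets tested, 19.0% passed limma's adjusted threshold and 5483 probe sets had an unadjusted p under 0.05. With so few probe sets, nothing is read from these counts. CNOT7, the close relative of CNOT8 in the same position of the complex, had differences of -0.39, -0.11 and 0.08 on its 3 probe sets. The second of these had signals of 9.89, 10.13 and 10.00 in IPEC-J2, against 10.16, 10.01 and 10.19 in IPEC-1, and the lines overlapped (95% interval of the difference -0.42 to 0.19). The largest CNOT7 difference had an interval of -0.72 to -0.05 (adjusted p = 0.109 from limma). The difference between CNOT8 and CNOT7 was not tested, since CNOT8 was chosen on this contrast.

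The scaffold CNOT1 had signals of 9.77, 10.13 and 9.97 in IPEC-J2, against 10.50, 10.20 and 10.58 in IPEC-1. The arrays did not overlap, with a difference of -0.47 and an interval of -0.88 to -0.06 that did not pass after adjustment (adjusted p = 0.111 from limma). CNOT11 had a difference of 0.10 (interval -0.17 to 0.37) and the deadenylase CNOT6L one of -0.12 (interval -0.77 to 0.53). CNOT9 differed by 0.01 and -0.60 on its probe sets, the second with IPEC-J2 replicate 1 at the floor and an interval of -2.50 to 1.30.

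Among the BTG relatives of TOB1, BTG2 rose and BTG1 did not pass. BTG2, an antiproliferative adaptor and p53 target, had signals of 8.84, 8.88 and 9.55 in IPEC-J2, against 6.92, 6.20 and 6.80 in IPEC-1. The lines did not overlap (difference 2.45, SE 0.29, adjusted p = 0.00499 from limma). As measured this is 5.46-fold, but the IPEC-1 mean of 6.64 lies under 7.85, the level taken for signals close to the floor in that line, and against that level BTG2 was 2.36-fold higher. This level is 7.85 in IPEC-1 and 7.78 in IPEC-J2. To find it, probe sets with floor values on 2 arrays of a line were taken, and the 95th percentile of their signals above the floor on its remaining array was used. Folds given for single probe sets are as measured unless the level is named. BTG1 differed by 0.27 (interval -0.16 to 0.71). TOB2 is not analysed here. Of 6 probe sets of the other deadenylases PAN2, PAN3, ANGEL2 and TOE1, 0 passed by limma, 0 had an unadjusted p under 0.05 and 0 passed the methods' t-test, with differences between -0.31 and 0.86. Of all 16313 probe sets tested, 19.0% passed by limma and 5483 had an unadjusted p under 0.05.

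**Figure D3:**
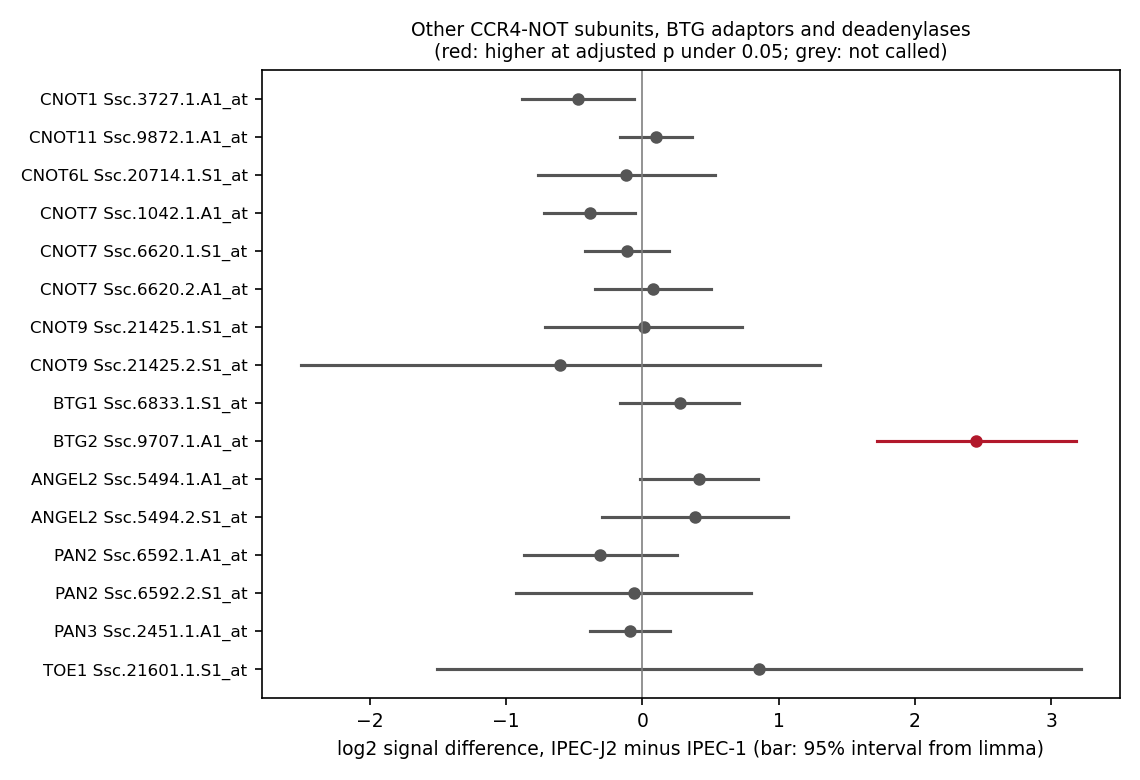
Log2 signal difference, IPEC-J2 minus IPEC-1 (horizontal axis), with its 95% interval from limma, for each probe set of the other CCR4-NOT subunits, BTG adaptors and deadenylases. BTG2 alone passed the adjusted threshold (2.45), while the 3 CNOT7 probe sets lie between -0.39 and 0.08.

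Of the genes around the poly(A) tail, PAIP1 and PABPN1 fell and EIF4G3 rose. In this list without PABPC4, 1 of 15 probe sets was higher and 3 were lower, which is 6.67% and 20.0%, against 8.80% and 10.2% over all probe sets tested. The median difference was -0.17 in the list and -0.07 over all probe sets tested. PAIP1, a partner of the cytoplasmic poly(A)-binding protein that promotes translation, had signals of 9.40, 9.64 and 9.62 in IPEC-J2, against 10.58, 10.26 and 10.60 in IPEC-1, 1.90-fold lower (adjusted p = 0.0136 from limma, 0.0505 without IPEC-J2 replicate 3). PABPN1, the nuclear poly(A)-binding protein, was 2.50-fold and 1.47-fold lower on 2 probe sets (adjusted p = 0.0100 and 0.0216) and differed by 0.02 on the third, so that its probe sets disagree. The smaller of these calls ended with arrays centred on their 75th percentile (adjusted p = 0.0550 from limma) and without IPEC-J2 replicate 2 or 3 or IPEC-1 replicate 2 or 3 (0.0573 to 0.0862). EIF4G3, a scaffold of cap-dependent translation, was 1.67-fold higher (adjusted p = 0.0182, and 0.0527 to 0.0675 without IPEC-J2 replicate 3 or IPEC-1 replicate 2 or 3).

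PABPC1, the main cytoplasmic poly(A)-binding protein and relative of PABPC4, did not pass. Its signals were 13.44, 13.67 and 13.53 in IPEC-J2, against 13.67, 13.74 and 13.74 in IPEC-1. IPEC-J2 replicate 2 equalled the lowest IPEC-1 array, and the difference of -0.17 had an interval of -0.46 to 0.12. Whether PABPC4 differed more than PABPC1 was not tested.

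Several other genes of decapping were also lower in IPEC-J2, and DCP2 and DCP1B are not analysed here. Without DCP1A, 6 of 19 probe sets of decapping and 5′ decay were lower and 0 were higher by limma. At an unadjusted p under 0.05 there were 7 lower and 2 higher, and 5 lower and 0 higher by the methods' t-test after adjustment. Of all 16313 probe sets tested, 5483 had an unadjusted p under 0.05. The share of lower probe sets was 31.6%, against 10.2% over all probe sets tested, and the list's median was -0.20.

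EDC3, an enhancer of decapping, had signals of 7.56, 7.90 and 7.77 in IPEC-J2, against 8.53, 8.71 and 8.51 in IPEC-1, 1.79-fold lower, or 1.75-fold against the level of 7.78 (adjusted p = 0.0145 from limma, 0.0578 without IPEC-J2 replicate 3). Its other probe set had floor values in IPEC-J2 and on IPEC-1 replicate 1 and was not called. With the EDC3 probe sets averaged, the difference was -1.13 and did not pass (adjusted p = 0.0575 from limma). EDC4, the scaffold between DCP1A and DCP2 in human cells, was lower on both of its probe sets above the floor, by 1.46-fold and 1.66-fold (adjusted p = 0.0249 and 0.0333 from limma). On the first its signals were 9.10, 9.22 and 9.30 in IPEC-J2, against 9.75, 9.77 and 9.73 in IPEC-1. On the second they were 7.83, 7.87 and 7.93 in IPEC-J2, against 8.37, 8.88 and 8.57 in IPEC-1. Neither overlapped between the lines, but the second lost its call without IPEC-1 replicate 2 or 3 or any 1 of the IPEC-J2 arrays (adjusted p = 0.0541 to 0.0952 from limma). With all EDC4 probe sets averaged, those at the floor included, the difference was -0.32 (adjusted p = 0.0484 from limma).

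LSM14A, a protein of processing bodies, and PNRC2, which links decapping to nonsense-mediated decay, were also lower, by 1.62-fold and 1.54-fold (adjusted p = 0.0148 and 0.0431 from limma, both named after their values were seen). The other PNRC2 probe set differed by -1.13 and was not called (adjusted p = 0.214 from limma). LSM3, of the ring that binds the shortened tail, was lower as well, with signals of 9.70, 9.92 and 9.65 in IPEC-J2, against 10.59, 10.75 and 10.64 in IPEC-1 (1.87-fold lower, adjusted p = 0.00859 from limma). The ring as a whole did not share this direction. LSM2 differed by -0.47, but LSM7 by 0.34 and LSM6 by 0.29, 0.56 and 0.39 on its probe sets, and none of these was called. The helicase DDX6, which joins CCR4-NOT to the decapping factors, was higher in IPEC-J2 without passing the test. Its signals were 9.91, 9.33 and 9.92 in IPEC-J2, against 9.20, 8.11 and 8.67 in IPEC-1 (difference 1.06, adjusted p = 0.0844 from limma).

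**Figure D4:**
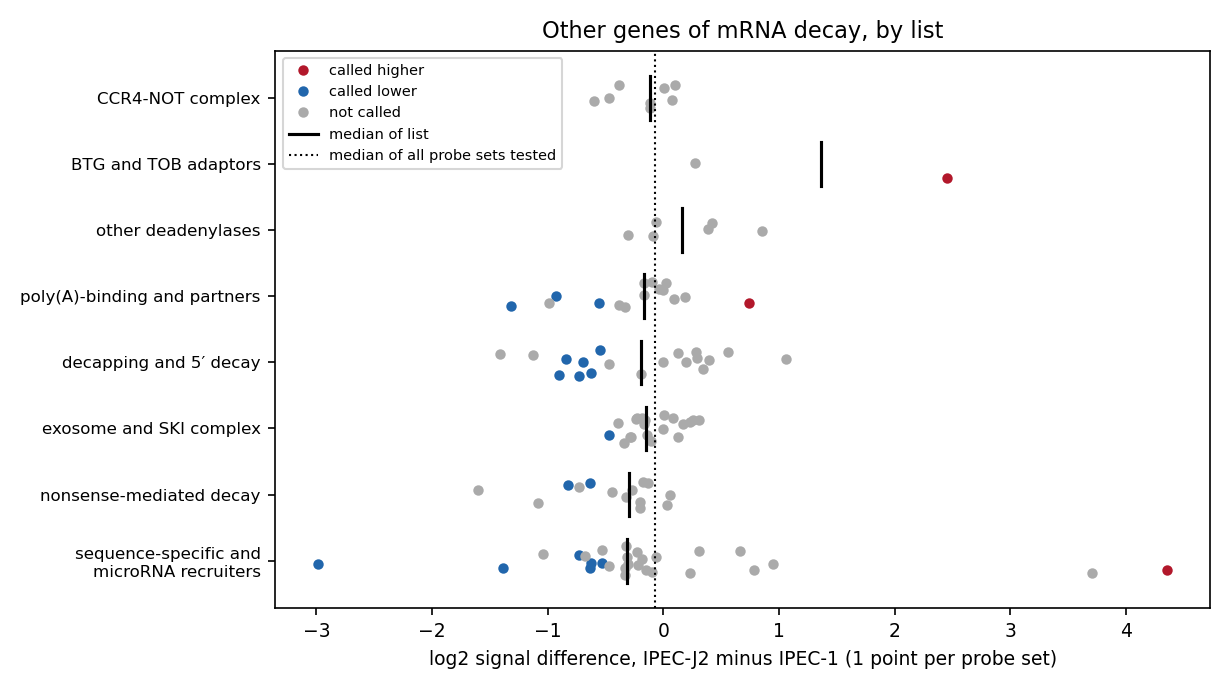
Log2 signal difference, IPEC-J2 minus IPEC-1 (horizontal axis), of 112 probe sets of 70 other genes of mRNA decay, 1 point per probe set, grouped by list; red is higher and blue lower at an adjusted p under 0.05 from limma, the bars are list medians and the dotted line is the median of all probe sets tested (-0.07). Decapping and 5′ decay has 6 lower points and 0 higher ones.

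The exosome and nonsense-mediated decay lists held 1 and 2 calls, in both a share under the 19.0% called over all probe sets tested. For the unadjusted counts below, 5483 of all 16313 probe sets tested had an unadjusted p under 0.05. In the exosome and SKI complexes, which degrade RNA from the 3′ end, 1 of 20 probe sets was lower and 0 higher by limma (3 lower and 1 higher at an unadjusted p under 0.05, and 3 lower and 0 higher by the methods' t-test). That probe set belongs to the exosome subunit EXOSC9, 1.38-fold lower (adjusted p = 0.0388 from limma, and 0.0590 to 0.0958 without any 1 array). The other EXOSC9 probe set differed by -0.34 and was not called (adjusted p = 0.0903 from limma). In nonsense-mediated decay 2 of 14 were lower and 0 higher by limma (3 lower and 0 higher unadjusted, 1 and 0 by the methods' t-test). MAGOH, of the exon junction complex, was 1.55-fold lower on its probe set above the floor (adjusted p = 0.0168 from limma). Averaged with its probe set at the floor, MAGOH differed by -0.32 (adjusted p = 0.0431 from limma). UPF3A, a partner of UPF2, had a log2 difference of -0.82 (adjusted p = 0.0391 from limma). Both UPF3A means (5.88 in IPEC-J2 and 6.71 in IPEC-1) lay under the levels close to the floor. MAGOH lost its call without IPEC-J2 replicate 2 or 3 or IPEC-1 replicate 3 (0.0518 to 0.0713), and UPF3A without any 1 array other than IPEC-1 replicate 2 (0.0646 to 0.123).

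The list of sequence-specific and microRNA factors also holds proteins that do not recruit the decay machinery. In this list 6 of 28 probe sets were lower and 1 was higher, which is 21.4% and 3.57%, against 10.2% and 8.80% over all probe sets tested. ZCCHC11, a uridylyltransferase that marks RNAs with short tails, had signals of 7.52, 7.68 and 7.69 in IPEC-J2, against 9.07, 9.02 and 8.95 in IPEC-1, 2.61-fold lower, or 2.35-fold against the level of 7.78 (adjusted p = 0.00114 from limma). CPEB4, which binds cytoplasmic polyadenylation elements in the 3′ untranslated regions of mRNAs, was 1.65-fold lower on 1 of its 2 probe sets above the floor (adjusted p = 0.0242 from limma, and 0.0561 to 0.0777 without any 1 array other than IPEC-J2 replicate 1). With all CPEB4 probe sets averaged, those at the floor included, the difference was -0.40 (adjusted p = 0.0696 from limma). CELF2, an RNA-binding protein, was called on 1 of its 3 probe sets. This one had signals of 8.13, 8.52 and 8.42 in IPEC-J2 and only floor values in IPEC-1, at least 1.42-fold higher (adjusted p = 4.71e-05 from limma). The other CELF2 probe sets also had only floor values in IPEC-1, but IPEC-J2 replicate 1 stood at the floor too and they did not pass (adjusted p = 0.173 and 0.453 from limma). In IPEC-J2 replicates 2 and 3 the first of these had 9.76 and 9.35. The second was at the floor on replicate 2 as well and had 6.00 on replicate 3. NANOS1, a partner of the Pumilio proteins that recruits CCR4-NOT, had only floor values in IPEC-J2 on 1 of its 2 probe sets, against 7.23, 7.26 and 6.47 in IPEC-1 (adjusted p = 0.00117 from limma, 0.0515 with the probe sets averaged). Its other probe set was above the floor on 1 array of each line, with 5.73 in IPEC-J2 and 5.92 in IPEC-1, and did not pass (adjusted p = 0.969 from limma). For the lower bound of CELF2, IPEC-1 was set to its level of 7.85. NANOS1 in IPEC-1 lies under the IPEC-J2 level of 7.78 and gets no fold.

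Over all lists and without the members, 3 of 112 probe sets were higher and 18 lower in IPEC-J2. This makes 18.8% called, where 19.0% of all probe sets tested were called. The shares by direction were 2.68% higher and 16.1% lower, against 8.80% and 10.2% over all probe sets tested. The calls fell on 3 genes that were higher and 15 that were lower, and 0 genes had calls in both directions. Without 1 array, 2 to 6 probe sets were higher and 4 to 13 lower. The lower count was 7 and 4 without IPEC-J2 replicates 2 and 3 and 11, 10 and 9 without IPEC-1 replicates 1, 2 and 3, and the higher count was 6 without IPEC-J2 replicate 1.

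Many probe sets followed each member closely over the 6 arrays, so a high likeness is common here. With 5571 candidates of other named genes (5569 for DCP1A), Pearson's r exceeded 0.95 for 567 probe sets with CNOT8, 241 with CNOT2, 208 with TOB1, 411 with PABPC4 and 493 with DCP1A. The closest were WDR70 and IL11RA for CNOT8 (r = 0.999 each), RNF121 and DUSP14 for CNOT2 (0.998 and 0.997), RHBDF2 and C12H17orf49 for TOB1 (0.999 and 0.998), TYW3 and NRDC for PABPC4 (0.999 each) and KIAA1324 and PALMD for DCP1A (0.999 and 0.998). All these values share the split between the cell lines and the same arrays.

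Both lines carried epithelial markers, with EPCAM, KRT8, KRT18 and KRT19 among the 7 of 10 epithelial genes whose mean lay above 8 on every array, while CLDN3 had only floor values in IPEC-1. The mean over this list was 10.99 to 11.32 in IPEC-J2 and 9.90 to 10.52 in IPEC-1. Of its 14 probe sets tested, 3 were called higher and 2 lower in IPEC-J2. Of the markers of other cell types, PTPRC, CD3D and ITGAM of leukocytes, COL3A1, DCN and LUM of fibroblasts and CDH5, KDR, TEK, VWF and ENG of endothelium were at the floor on every array. The other analysed genes of these lists were above the floor on at least 1 array, so signal of such genes was not absent. The list means, which include the genes at the floor, were 5.10 to 5.27 in IPEC-J2 and 4.95 to 5.04 in IPEC-1 for 7 fibroblast genes. Of 7 fibroblast probe sets tested, 3 were called higher and 2 lower in IPEC-J2, where 19.0% of all probe sets tested were called. The means were 4.00 to 4.15 in IPEC-J2 and 4.32 to 4.43 in IPEC-1 for 5 leukocyte genes, and 4.00 to 4.14 in IPEC-J2 and 4.28 to 4.31 in IPEC-1 for 6 endothelial genes. Of the leukocyte probe sets tested 1 of 2 was lower, and of the endothelial ones 1 of 1. The array holds control probe sets at the 3′ and 5′ ends of transcripts. For 1 pair of actin, 3′ minus 5′ on the log2 scale was 2.77 to 2.81 in IPEC-J2 and 1.42 to 1.74 in IPEC-1. For another pair it was 0.59, -5.21 and 0.78 in IPEC-J2, against -6.33, 0.16 and 0.43 in IPEC-1, with the 3′ probe set at the floor on the arrays far below 0. For GAPDH it was 0.37 to 0.41 in IPEC-J2 and 0.25 to 0.41 in IPEC-1 on 1 pair and -0.01 to 0.07 in IPEC-J2 and -0.15 to 0.13 in IPEC-1 on another, and for EF1A it stayed between 0.01 and 0.05 on all arrays. The part of these values in the differences of the decay genes was not tested. In such bulk samples, fewer cells with a transcript and less of it per cell cannot be told apart. Every array received the same amount of total RNA, so the signals do not give amounts per cell. The paper reports that RNA content per cell was significantly higher in IPEC-J2. A lower signal in IPEC-J2 therefore need not mean less transcript per cell, and amounts per cell were not tested.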

How the data were processed

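The deposited table holds a log2 signal for 24123 probe sets on each array. Per the labels, the authors used GCOS 1.1.1 and PLIER, and the methods name global scaling to a target signal in GCOS, background correction, normalization and probe set summary. The log base of the deposited values is not given in the sources used here. Base 2 was read from the floor of 4, the log2 of 16. The table was used as deposited, and no detection calls were used. Control probe sets (188) and 7622 probe sets at the floor on every array were left out, which left 16313. Symbols came from the platform annotation, where 198 probe sets have several and 13668 are unnamed here. For all 8 member probe sets the gene ID has the same symbol in the RefSeq gene table.

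IPEC-J2 was compared with IPEC-1 per probe set with limma 3.58.1 in R 4.3.3 (lmFit, eBayes) and no block. P-values were adjusted after Benjamini-Hochberg over the 16313 probe sets, at a threshold of 0.05, and reflect only the spread of these cultures, which may be technical. The test was run on simulated data first. Within a line, arrays correlated with r of 0.980 to 0.989 in IPEC-J2 and 0.969 to 0.978 in IPEC-1 over 11005 probe sets above the floor, and 0 pairs held identical values. The number of arrays limits the precision.

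The members, the lists of decay genes (written from general knowledge) and the rules were chosen with earlier results of these data known. Named were every member probe set, and every other CCR4-NOT subunit and closest relative of a member that was analysed. The 3 largest calls per list and direction and the 2 probe sets most like each member were also named. The alternatives were the methods' t-test, quantile normalization, an added 16 on the linear scale, arrays centred on their 75th percentile, floor probe sets kept, a mean of at least 6, robust eBayes with a trend, blocks, the average per symbol and leaving out each array. No sequences are shown.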

Additional observations from a re-analysis of the deposited data

How the results depend on the processing

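The differences of the 7 member probe sets kept their sign and moved by less than the spread between replicates in every setting run. Since the members were chosen on this contrast, their counts of calls below support nothing. All 7 were called under each other scaling, filter and variance model, with the methods' t-test and with the sample note as a random block (1769 probe sets higher and 2144 lower, with 3 list probe sets higher and 19 lower). The fixed blocks and fewer arrays ended calls. Same-numbered arrays did not deviate together (r of -0.0425, -0.121 and 0.0151 for numbers 1, 2 and 3). For arrays that share a note, r was 0.0519 (note A) and 0.165 (note B), and for the arrays without a shared note it was 0.129. The correlation fitted for the note as a random block was 0.257. With the replicate number as a block, 465 probe sets were higher and 494 lower in place of 1435 and 1659, with 3 list probe sets lower in place of 18 and 0 members called. With the sample note as a block and the arrays without a shared note as a further pair, chosen after seeing the data, 866 were higher and 776 lower, with 5 list probe sets lower and 2 members called (CNOT8 and PABPC4). Both blocks leave 2 residual degrees of freedom in place of 4. With only the 4 arrays of shared notes (1 residual degree of freedom), limma called 0 higher, 0 lower, 0 of the lists and 0 members, with 3883 at an unadjusted p under 0.05.

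Averaging per symbol gave 662 higher and 762 lower among 5513 genes and 10 list genes lower, and quantile normalization 5 list probe sets higher in place of 3. The methods' t-test had 5320 probe sets under its threshold before adjustment and 1358 higher and 1521 lower after it. Leaving out 1 array gave 722 to 1570 higher and 870 to 1299 lower, with 2 to 6 list probe sets higher and 4 to 13 lower. Members called were 5 and 3 without IPEC-J2 replicates 1 and 2, 2 without IPEC-J2 replicate 3 or IPEC-1 replicate 1, and 4 and 3 without IPEC-1 replicates 2 and 3. Without IPEC-J2 replicate 3, 4 list probe sets were lower, and without IPEC-J2 replicate 1, 6 were higher. The cause was not tested. Of the genes named from the lists, UPF3A failed in 12 of 18 settings, and EDC4 (its second probe set), EXOSC9 and CPEB4 in 9 each (adjusted p up to 0.218, 0.287, 0.223 and 0.199). Signals near the floor, as in NANOS1, limit what can be read.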
